A study of Mus musculus with 4 samples.

Results

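Klb, Kl, the 4 fibroblast growth factor receptor genes Fgfr1 to Fgfr4 and the 2 ligand genes Fgf21 and Fgf15 form the surface machinery and hormones of endocrine fibroblast growth factor (FGF) signalling in the mouse. They were followed here in Beta-TC-6, an established line of mouse beta cells derived from an insulinoma of transgenic mice that express a viral oncogene under the insulin promoter. The 8 genes were chosen by symbol from 22180 genes measured on Affymetrix Mouse Gene 2.1 ST arrays, which probe whole transcripts. Klb heads the group because its difference between the 2 conditions was already known to be among the largest, so its values, and those of the genes listed with it, are given as a description and were not tested.

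The comparison was of 2 groups with 2 arrays each. The siNF90 cells received a mixture of 3 RNA duplexes against NF90, a protein that binds double-stranded RNA, and the siNTC cells a negative control siRNA, both by lipofection. All cells grew in medium with 25 mM glucose and 15% serum. The sources used here do not give the time from transfection to extraction. They also do not say whether replicate arrays stem from separate cultures, so the spread between arrays may be technical. Standard errors come from a fit (limma) that draws each gene's spread toward a value shared by all genes. They therefore do not measure the spread of that gene's arrays alone. The level of NF90 itself was not analysed here, and groups are named by their label.

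FGF21 and FGF15 are secreted hormones that bind heparan sulphate weakly, so they reach distant tissues but need a klotho protein to hold them at a receptor. Beta-klotho, encoded by Klb, is a membrane protein with a short cytoplasmic tail that captures the end of FGF21 or FGF15 and brings it to an FGF receptor kinase, chiefly FGFR1 in fat and FGFR4 in liver. Alpha-klotho, encoded by Kl, does the same for FGF23 in the kidney. FGFR1 signalling in beta cells is known to support their function in mice, and FGF21 has been described as acting on islets and on acinar cells of the pancreas.

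Klb was higher in siNF90, while its relative Kl and the receptor genes Fgfr1 and Fgfr2 differed by less than the spread between arrays. Klb (probe set 17437765) lay at 3.98 and 4.22 on the siNTC arrays and at 5.05 and 5.15 on the siNF90 arrays, in log2 units of the deposited table. The groups did not overlap, and the lowest siNF90 value was 0.83 above the highest siNTC value. The means were 4.1 ± 0.17 and 5.1 ± 0.07 (SD, n = 2 arrays each), a log2 difference of 1 with a standard error of 0.14, or 2-fold. On all 4 arrays Klb lay above the upper quartile of that array (3.77 to 3.82). Array medians and quartiles are taken here over all 41345 probe sets, of which 16010 carry no symbol. They are not quartiles of the 22180 genes. Only 18 of the 22180 genes, Klb included, had a difference this high or higher, and 40 had one this large in either direction. Leaving out each array in turn gave differences of 0.88 to 1.12.

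Of the 8 genes, 4 had separate groups with siNF90 above (Klb, Fgfr4, Fgf21 and Fgf15), 0 had separate groups with siNF90 below, and 4 overlapped. Over all genes, 21.9% were separated upward in this way and 17.9% downward. The choice of Klb used this contrast, so nothing is read from the count. The median difference was 0.24 over the 8 genes and 0.015 over all genes (log2). Nothing is read from this median either, for the same reason. The values on either side of it are those of Fgf21 (0.17) and Fgf15 (0.31), which lay under the median on every array.

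**Figure D1:**
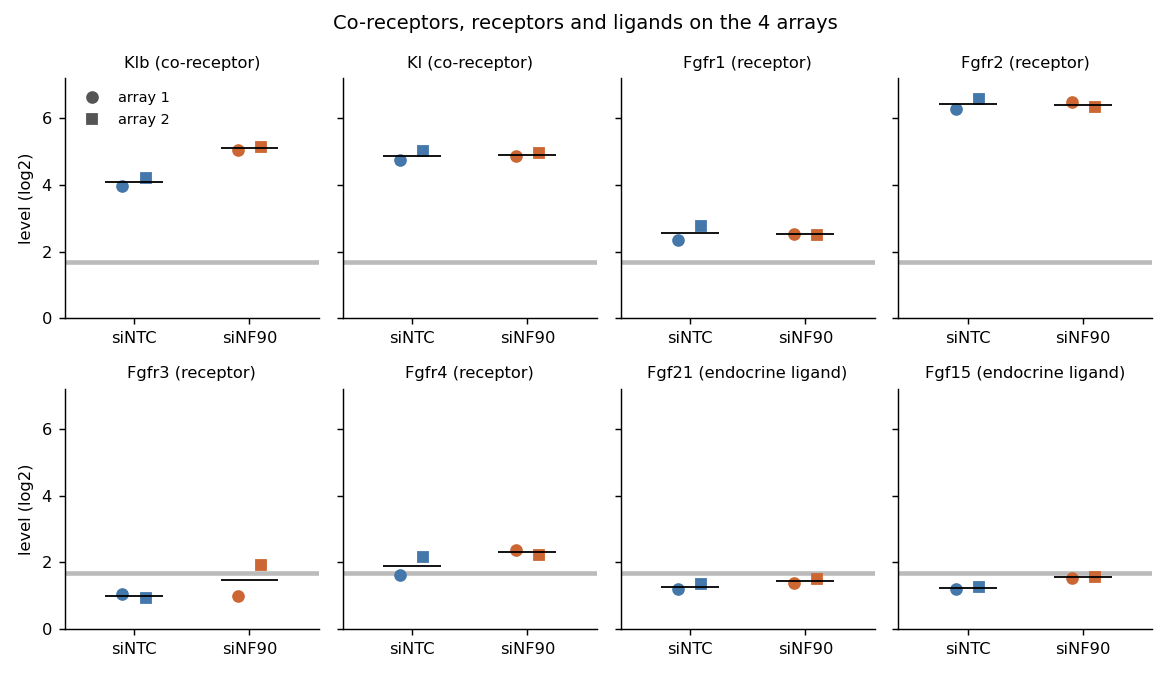
Level on the deposited log2 scale (vertical axis) of the 8 genes on the siNTC arrays (blue) and the siNF90 arrays (orange), with circles for array 1, squares for array 2, black lines for group means and a grey band for the 4 array medians. Klb separates by 0.83 between its nearest arrays, Kl, Fgfr1 and Fgfr2 overlap, and Fgfr3, Fgf21 and Fgf15 lie near or under the band.

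The sequences around the start sites of the paralogues Klb and Kl are shown because the first gene differed most among the 8 and its relative hardly at all. Each runs from 250 bases before to 50 bases after a transcription start in RefSeq (build GRCm38.p6), 5′ to 3′ on the gene's strand, at chr5:65348161-65348460 (plus strand) for Klb and chr5:150952357-150952656 (plus strand) for Kl. Capitals mark matches, on either strand, to 5 short motifs. The TATA box, which places the start of transcription, was searched as TATAAA. The element bound by nuclear factor Y was searched as CCAAT. The GC box bound by Sp1 was searched as GGGCGG. The E-box of helix-loop-helix factors was searched as CANNTG, and the core of homeodomain sites as TAAT.
Klb: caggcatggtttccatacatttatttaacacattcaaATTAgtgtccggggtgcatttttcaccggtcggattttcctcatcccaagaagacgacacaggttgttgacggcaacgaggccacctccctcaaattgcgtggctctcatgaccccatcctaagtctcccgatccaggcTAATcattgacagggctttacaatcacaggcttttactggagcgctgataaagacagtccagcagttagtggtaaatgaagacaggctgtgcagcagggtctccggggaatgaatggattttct
Kl: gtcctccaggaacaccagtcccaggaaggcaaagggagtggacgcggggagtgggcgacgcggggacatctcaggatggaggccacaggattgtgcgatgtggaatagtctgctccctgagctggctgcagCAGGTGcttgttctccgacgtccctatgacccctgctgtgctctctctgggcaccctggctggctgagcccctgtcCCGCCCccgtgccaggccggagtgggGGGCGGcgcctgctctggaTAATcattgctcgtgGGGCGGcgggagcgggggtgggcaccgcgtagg

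The Klb window held 2 matches, both to TAAT, at positions -213 and -74 (first base of the match, with the first transcribed base as 1). TAAT occurs in 58% of the 32851 windows of this length in the RefSeq table. The Kl window held 3 GC boxes, at -43, -17 and 18, an E-box at -119 and a TAAT at 3, and none of the matches in either window overlapped. GC boxes occur in 35.7% of all windows and E-boxes in 72.3%. Base composition differed too, with 48.3% G and C in the Klb window and 67.3% in that of Kl, against a median of 52.7% over all windows. No match to the p53 half-site lay in the Klb window or in any other of the 7 windows of member genes. Only 8.36% of all windows held one, so its absence is the usual case and nothing is read from it. The Fgf21 window, at chr7:45615441-45615740 (minus strand), held TATAAA at -28 (13.6% of windows) and TGATGCAAT, an amino acid response element bound by ATF4, at -140 (0.192% of windows). A match is a description of letters and does not show that a factor binds.

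Kl stood at 4.74 and 5.03 in siNTC and at 4.88 and 4.95 in siNF90. Both siNF90 values lay between the siNTC values. The difference was 0.03 with a standard error of 0.14 (log2), and it took either sign as single arrays were left out, from -0.115 to 0.175. Kl also lay above the upper quartile on all 4 arrays.

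Fgfr1 encodes the receptor that pairs with beta-klotho for FGF21 in fat. It lay at 2.36 and 2.77 in siNTC and at 2.53 and 2.5 in siNF90. The siNF90 values again lay inside the siNTC range, with a difference of -0.05 and a standard error of 0.17. Fgfr1 was above the median but below the upper quartile of each array.

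Fgfr2, whose epithelial form answers FGF7 and FGF10 from surrounding tissue, stood at 6.27 and 6.57 in siNTC and at 6.48 and 6.34 in siNF90. The groups overlapped and the difference was -0.01 with a standard error of 0.15. All 4 values were above the upper quartile of their array. For Fgfr1 and Fgfr2 the sign of the difference also changed when single arrays were left out, within -0.255 to 0.155 and -0.16 to 0.14.

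Fgfr4, the partner of beta-klotho for FGF15 in liver, lay at 1.62 and 2.15 in siNTC and at 2.38 and 2.22 in siNF90. It was at or above the array median on 3 of the 4 arrays and above no array's upper quartile. The siNF90 arrays were higher, by only 0.07 between the nearest arrays, while the siNTC arrays were 0.53 apart. The difference was 0.415 with a standard error of 0.20, and it was 0.15 without the first siNTC array and 0.68 without the second.

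Fgfr3, a receptor best known for restraining bone growth, stood at 1.05 and 0.92 in siNTC and at 0.99 and 1.92 in siNF90. Only the second siNF90 array was high, and the first lay between the siNTC values. The difference of 0.47 (standard error 0.30) was 0.005 without that second array. A gap between the siNF90 arrays of at least this size (0.93) occurred in 136 genes, 0.613% of all. Fgfr3 lay below the lower quartile on the other 3 arrays.

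The ligand genes had low signals, under the median on every array, and the table holds no measure of background with which to call them expressed. Fgf21, a hormone of fasting and cell stress, lay at 1.2 and 1.34 in siNTC and at 1.37 and 1.51 in siNF90, and the nearest arrays of the groups were 0.03 apart. The difference was 0.17 with a standard error of 0.13.

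Fgf15, the intestinal hormone that lowers bile acid synthesis in the liver and the mouse counterpart of human FGF19, was the one gene of the 8 with 2 probe sets. The one with the higher mean (17498499) lay at 1.21 and 1.26 in siNTC and at 1.52 and 1.57 in siNF90, a difference of 0.31 with a standard error of 0.12. The other (17485443) lay at 1.13 and 1.06 in siNTC and at 1.01 and 1.12 in siNF90, a difference of -0.03. The 2 probe sets disagree: one separated the groups by 0.26 and in the other they overlapped.

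**Figure D2:**
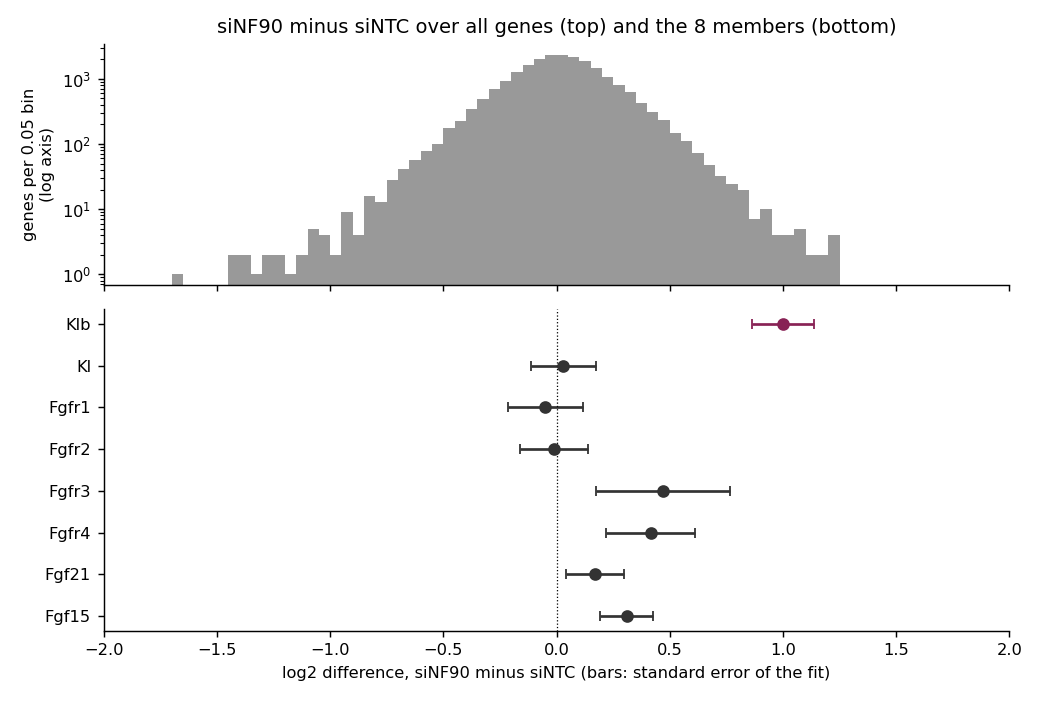
Top, the number of genes (log axis) by log2 difference, siNF90 minus siNTC, over all 22180 genes; bottom, the same difference for the 8 genes with the standard error of the limma fit as bars. Klb, in purple, stands at 1, Kl, Fgfr1 and Fgfr2 lie within 0.05 of 0, and the others between 0.17 and 0.47.

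Over all genes, 0 (0%) passed limma's test at a Benjamini-Hochberg adjusted p under 0.05, and the lowest adjusted value was 0.342. Without adjustment, 2281 genes (10.3%) had a p under 0.05, of which 1303 were higher and 978 lower in siNF90. When the prior for the spread followed the level of the gene, 101 genes passed. With so few arrays, the smallest p that exact permutation could give is 0.33 (two-sided), and it was not used.

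Other genes of FGF signalling, in 6 lists, were read against this background. Of 111 genes listed, 101 had a probe set of their own and none passed limma's test (0 of 101, smallest adjusted p = 0.357), either in the planned fit or with the prior that follows the level. Without adjustment, 15 (14.9%) had a p under 0.05. The siNF90 arrays both exceeded the siNTC arrays in 26 genes, both were under them in 18, and the groups overlapped in 57. These are 25.7% and 17.8% of the list genes, near the 21.9% and 17.9% of all genes. The median difference was 0.045, and no gene of these lists reached a 2-fold difference.

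The remaining secreted ligands showed small differences. Of 16 genes, 8 were above 0 and 7 below, with a median of 0.01, and only 4 reached the median level of all genes (1.84) in either group. Fgf1, which binds all 4 receptors, lay at 3.52 and 4.12 in siNTC and at 3.61 and 3.94 in siNF90, so the siNF90 values were inside the siNTC range. Fgf17, Fgf22 and Fgf9 differed by 0.195, 0.245 and 0.135, and the groups were separate only for Fgf17. Fgf17 (means 1.825 and 2.02) and Fgf9 (1.81 and 1.945) reached the median level only in siNF90. The rule that named these 2 genes therefore favours a positive difference, and nothing is read from their sign. Among the 4 homologous factors, which stay inside the cell and bind sodium channels, Fgf12 (0.055) and Fgf14 (-0.02) overlapped between groups.

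Enzymes and carriers of heparan sulphate, the sugar chain that joins FGFs to their receptors, included the largest difference in any of the 6 lists. Of 23 genes, 13 were above 0 and 10 below (median 0.09). The groups were separate upward in 6 (26.1%) and downward in 3 (13%), against 21.9% and 17.9% of all genes. Sulf2, an extracellular enzyme that removes 6-O-sulphate, lay at 3.22 and 3.24 in siNTC and at 4.37 and 3.79 in siNF90. Both siNF90 arrays were higher but stood 0.58 apart (difference 0.85, standard error 0.20, limma adjusted p = 0.36). Hs6st3, which adds 6-O-sulphate, lay at 2 and 2.04 in siNTC and at 2.71 and 2.69 in siNF90 (difference 0.68, standard error 0.12, limma adjusted p = 0.357). In this gene the groups were separate and the arrays of each were close. Glce, the epimerase that makes iduronic acid in the chain, was lower, at 6.42 and 6.18 against 5.71 and 5.8 (difference -0.545, limma adjusted p = 0.374). Hs2st1, a 2-O-sulphotransferase, differed by 0.33.

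Adaptors and the MAP kinase cascade, which carry the signal from an activated receptor, had 8 of 18 genes above 0 and a median of -0.025. The groups were separate upward in 3 (16.7%) and downward in 4 (22.2%), against 21.9% and 17.9% of all genes. Shc1, an adaptor shared by many receptor kinases, lay at 4.28 and 4.38 in siNTC and at 4.94 and 4.68 in siNF90 (difference 0.48, standard error 0.14, limma adjusted p = 0.409). The kinases Rps6ka3 and Araf and the exchange factor Sos1 differed by -0.29, -0.215 and -0.2. These 4 were named for their small p, and their groups were separate.

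Genes that FGF signalling is known to induce, including its inhibitors, had 15 of 21 differences above 0 (71.4%, against 53.1% of all genes) and a median of 0.12 (0.015 over all genes). The groups were separate upward in 8 (38.1%) and downward in 4 (19%), against 21.9% and 17.9% of all genes, and no member passed limma's test. Spred3, an inhibitor of the cascade, lay at 3.23 and 2.9 in siNTC and at 2.7 and 2.27 in siNF90 (difference -0.58, standard error 0.20, limma adjusted p = 0.439). The early response factor Egr1 differed by 0.35, the phosphatase Dusp5 by 0.26 and the inhibitor Spry1 by 0.365, each with the siNF90 arrays above. Dusp6, Spry2 and Etv5 are widely used readouts of FGF signalling and are named here after their values were seen. They differed by 0.09, 0.045 and -0.06 and overlapped between groups. They do not stand for the list, in which 15 of 21 genes were above 0 and 8 were separate upward. The output of FGF signalling was not tested.

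Regulators and partners of the FGF15 and FGF21 axis went both ways, with a median of 0.04 over 19 genes. The groups were separate upward in 6 (31.6%) and downward in 6 (31.6%), against 21.9% and 17.9% of all genes. Without adjustment 7 (36.8%) had a p under 0.05, against 10.3% of all genes, and none passed limma's test after it. Only 9 of the 19 genes reached the median level of all genes in either group. The 7 include a gene under that level, Adipoq, named after its values were seen. It lay at 1.08 and 0.9 in siNTC and at 1.29 and 1.32 in siNF90. Trib3, a pseudokinase induced by ATF4, lay at 3.49 and 3.55 in siNTC and at 2.93 and 2.43 in siNF90 (difference -0.84, standard error 0.19, limma adjusted p = 0.357). Rxra, the partner of the nuclear receptors that control Fgf21 and Fgf15, lay at 2.99 and 2.75 in siNTC and at 3.49 and 3.39 in siNF90 (difference 0.57, limma adjusted p = 0.36). The coactivator Ppargc1a differed by -0.395 and the hepatic and islet factor Hnf4a by 0.4. Atf4, which activates Fgf21, is named after its value was seen and differed by 0.04.

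**Figure D3:**
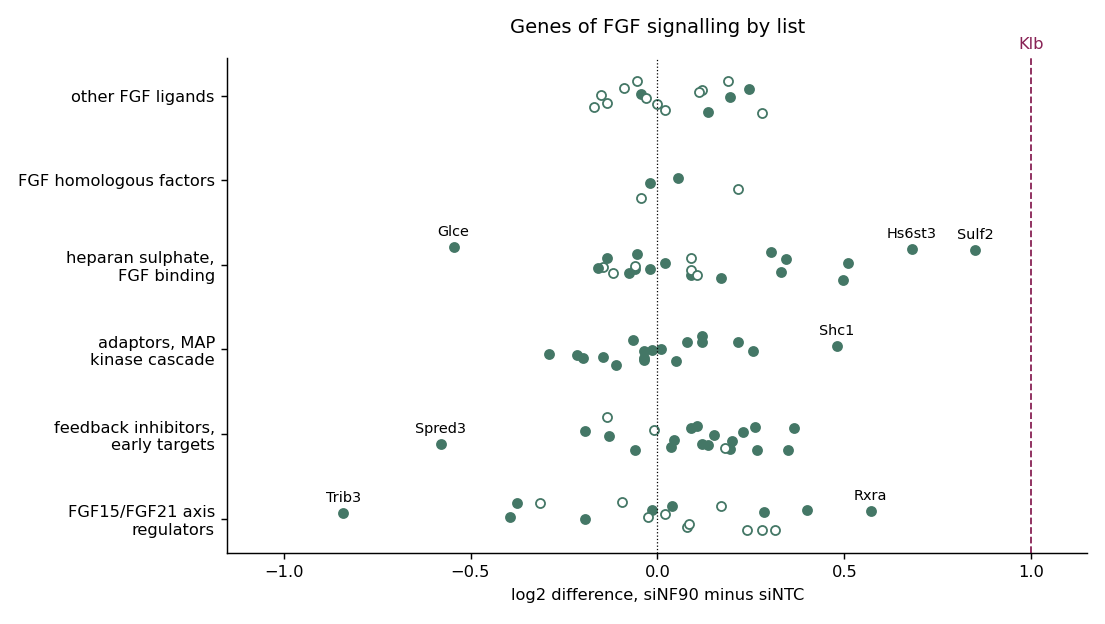
Each point is a gene of one of 6 FGF signalling lists (rows), placed by its log2 difference, siNF90 minus siNTC; filled points reached the median level of all genes in either group, and the dashed line marks Klb. The list genes lie between -0.84 and 0.85, and Sulf2, Hs6st3, Trib3, Spred3, Glce, Rxra and Shc1 are labelled.

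The genes closest to Klb in pattern were found by the distance between their deviations from the 4-array mean, over the 4 arrays, among 11454 other genes at or above the median level. They were S100a11-ps, a pseudogene by its symbol (distance 0.095), Slc16a3, a lactate exporter (0.109), the predicted gene Gm26504 (0.114), Npnt, a matrix protein (0.172), and Zmat3, an RNA-binding protein induced by p53 (0.177). Slc16a3 lay at 2.96 and 3.15 in siNTC and at 3.98 on both siNF90 arrays. S100a11-ps lay at 2.15 and 2.5 in siNTC and at 3.22 and 3.32 in siNF90. The gene S100a11 itself, whose sequence a pseudogene may share, is named outside the rule for naming genes and differed by 0.105. Of the other 7 genes described with Klb, the closest was Fgfr4 at 0.647. Likeness over 4 arrays of 2 groups says little beyond a similar difference between the groups.

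**Figure D4:**
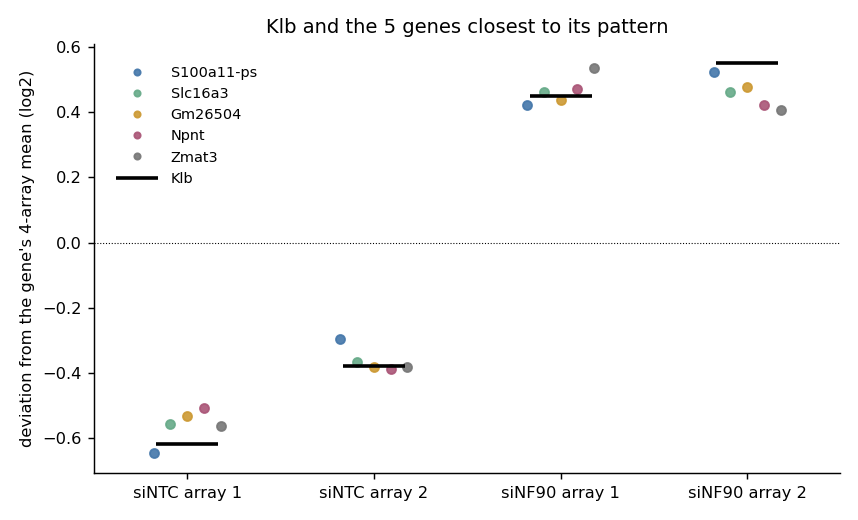
Deviation of each gene from its own 4-array mean (log2) on each array, for Klb (black bars) and the 5 genes nearest to it (coloured points, spread sideways for sight). All 6 lie below 0 on both siNTC arrays and above 0 on both siNF90 arrays.

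The arrays carried the markers of beta cells. Of 12 measured beta cell markers, 10 lay above the upper quartile on all 4 arrays, with Ins2, an insulin gene, at 7.88 to 8.01. Their summed linear level was 3887 and 3690 in siNTC against 3474 and 3522 in siNF90. The groups were separate with siNF90 above in 3 markers and below in 4. Over all genes, 21.9% were separate upward and 17.9% downward, and nothing is read from such counts in these short marker lists. Slc2a2, the glucose transporter of rodent beta cells, lay at 6 and 5.8 in siNTC and at 4.78 and 4.86 in siNF90, a difference of -1.08 that is larger in size than that of Klb (limma adjusted p = 0.342, and 0.0153 with the prior that follows the level). The part of these markers in the Klb difference was not tested. Genes of tissues in which Klb or Kl is known to be abundant were mostly low. None of 5 adipose markers reached the median level, with a summed linear level of 9.77 and 10.3 in siNTC against 10.1 and 11.3 in siNF90. Of 8 liver markers 3 did (Apoa2, Serpina1a and Tat), with sums of 173 and 167 in siNTC against 159 and 141 in siNF90. Most of that sum was Tat, an enzyme of tyrosine breakdown, at 7.19 and 7.12 in siNTC and at 7.02 and 6.79 in siNF90; without it the sums were 27.4 and 28.3 against 29 and 30.8, and Alb lay at 0.95 to 1.24. Of 9 exocrine and duct markers 2 did (Bhlha15 and Krt7), with sums of 40.8 and 38.4 against 41.7 and 43.8 in siNF90. Of 5 kidney tubule markers 2 did, both only in siNF90, where they were higher. Slc12a3 had means of 1.72 in siNTC and 2.14 in siNF90, and Calb1 of 1.68 and 1.955. The kidney tubule sums were 13.4 and 13.8 in siNTC against 15.4 and 16.2 in siNF90. In this list the groups were separate upward in 3 markers and downward in 0, with a median difference of 0.195. Of 11 markers of stroma, endothelium and blood only Cd68, a lysosomal protein abundant in macrophages, reached the median level. The sums were 34 and 33.8 in siNTC against 45.8 and 45.3 in siNF90, with Cd68 the largest part. Cd68 lay at 3.32 and 3.35 in siNTC and at 4.44 and 4.48 in siNF90. The blood cell markers Ptprc, Lyz2 and Adgre1 differed by -0.015, 0.11 and -0.03 and overlapped between groups. Of the 11 markers, 2 were separate upward and 1 downward, against 21.9% and 17.9% of all genes. Cd68 differed by 1.125, close to Klb, and its part in the Klb difference was not tested. Of 6 markers of other islet endocrine cells 5 reached the median level (Gcg, Irx2, Sst, Ppy and Ghrl), with sums of 507 and 574 against 608 and 563. In bulk RNA, fewer cells of a type and less RNA per cell cannot be told apart.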

How the data were processed

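The authors deposited log2 values for 41345 probe sets on 4 arrays, and the submitters' processing notes name Transcriptome Analysis Console. Its version, the background correction and the normalization are not stated in the sources used here. Base 2 was inferred, since 5 to 10 values per array exceed the natural logarithm of the scanner's maximum. Array medians were 1.65 to 1.68.

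Probe sets with 1 symbol in the platform annotation (23521) were used, and for each of 22180 genes the one with the highest mean. Limma 3.58.1 (R 4.3.3; lmFit and eBayes without trend or filter) compared siNF90 with siNTC, with 2 residual and 3.92 prior degrees of freedom and adjustment over all genes. Only the limma fit was tested on simulated data, drawn from the fit's own prior for the spread. That test required no recovery at the size of the Klb difference and did not cover the other steps. Promoter windows matched 6 of the 8 genes (Fgfr1 and Fgf15 are unmatched). From each FGF signalling list the text names up to 4 genes past the threshold, or else the 4 with the smallest p at or above the median level. It also names the 5 genes nearest Klb and, without a rule, single markers from the cell type lists. Other names are marked. The members and lists were chosen with earlier results of these data known. Alternatives were another prior, a block, other scalings, a level filter, other probe set rules and leaving out each array. The number of arrays limits the precision.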

Additional observations from a re-analysis of the deposited data

How the results depend on the processing

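The count of genes past limma's adjusted threshold was 0 in the planned fit and in 10 of 11 alternatives, and 101 (52 higher, 49 lower) with a prior that follows the level. The cause was not tested. The list count was 0 in all 11 alternatives, which says nothing about stability, since in 10 of them no gene at all passed. With the replicate number as a block (replicate block) the Klb difference was 1 and the gene count 0. Same-numbered arrays did not deviate together (r = -0.02 across 22180 genes, which are not independent), and no label states a pairing. The Klb difference lay between 0.88 and 1.12 over its 11 alternatives, at 1.01 with quantile normalization and 1.015 with arrays centred on their medians. The priors, the block and the level filter cannot change a difference of means in this balanced design. Leaving out single arrays moved the Fgfr3 difference of 0.47 between 0.005 and 0.935 and the Fgfr4 difference of 0.415 between 0.15 and 0.68. Fgf15 was at 0.14 with the mean of its probe sets and -0.03 with the second probe set. Scaling turned the sign of 2 small differences, Fgfr1 to 0.0225 with quantile normalization and Fgfr2 to 0.005 with centring. The level filter leaves Fgfr3, Fgf21 and Fgf15 without a value.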
